A study of Arabidopsis thaliana with 3 samples.

Results

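Some sites recovered with the histone demethylase JMJ28 lay deep inside the bodies of long Arabidopsis genes, away from both ends of the gene that held them. These are the summits that fall inside exactly 1 protein-coding gene and over 1000 bp from both of its ends. They numbered 1308, which is 7.12% of the 18368 summits on chromosomes 1 to 5 (exact 95% interval 6.75 to 7.50) and 8.25% of the 15846 summits inside exactly 1 protein-coding gene. The whole list, with the chloroplast genome, held 18410 summits. A summit is the 1 bp position at the top of a peak, that is, of a stretch where reads pile up. Members were chosen by position alone, and no score entered the choice.

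The data came from chromatin immunoprecipitation followed by sequencing (ChIP-seq) of Col-0 seedlings that carry the transgene JMJ28pro::JMJ28:3xFLAG, in which the promoter of JMJ28 drives JMJ28 with a triple FLAG tag. Seedlings were 14 days old and grew in long days at 22 °C. There were 2 ChIP libraries from biological replicates and 1 input library, all 3 of this genotype, and chromatin from plants lacking the tag was not analysed here. The authors' values are 1 list for the series, so neither depth nor the spread between the 2 replicates is known from it, and no test between plants was possible. All intervals below are exact 95% intervals that cover counting error only, and differences between groups of summits or genes are given as descriptions with no p-value. Whether the tagged line replaces JMJ28 function, and how many insertion events it stands for, is not given in the sources used here.

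JMJ28 belongs to the JmjC proteins that remove methyl groups from lysine 9 of histone H3, a mark of silent chromatin in plants. In Arabidopsis this mark is also placed in the bodies of active genes when its removal fails, and the family member IBM1 is known for keeping it out of transcribed genes. Gene bodies also carry their own layer of chromatin, with histone marks of elongation and methylated CG sites that are most common in the middle of long, moderately transcribed genes. Factors that bind at promoters typically place their ChIP-seq peaks near gene ends instead.

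Only long genes can hold a summit this deep. Of 27444 protein-coding genes in the gene table, 14437 (52.6%) are over 2000 bp long, and 24 of these are still too short to have a position over 1000 bp from both ends. A deep summit was found in 1212 genes, or 8.4% of the genes over 2000 bp. Most of them, 1127 genes, had a single deep summit. Another 75 genes had 2, 9 genes had 3 and 1 gene had 4. By contrast, 58.6% of the genes over 2000 bp held a summit that was not deep, most often within 1000 bp of an end and called outer from here on, and 61.8% held a summit of any kind.

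Deep summits were sparse for the length of gene available to them. The deep zones (positions over 1000 bp from both ends and covered by 1 protein-coding gene only) made up 42.1% of the length of these genes and held 11.3% of their summits (interval 10.8 to 11.9). That is 0.0643 summits per kb in the deep zones and 0.366 per kb in the outer zones of the same genes. The ratio of deep to outer density was 0.176 (interval 0.166 to 0.186), so the outer zones were 5.70 times as dense.

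Summit density went on declining inside the deep zone. It was 0.0878 per kb at 1000 to 1250 bp from the nearer end (531 summits), 0.0729 at 1250 to 1500 bp (307 summits) and 0.0605 at 1500 to 2000 bp (291 summits). Between 2000 and 2500 bp it was 0.0394 per kb (91 summits), and beyond 4000 bp it was 0.0229 (17 summits, interval 0.0133 to 0.0366). The intervals of the first and the last of these do not overlap, while those of neighbouring steps mostly do. For scale, the density at 100 to 200 bp from an end of the same genes was 0.783 per kb.

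**Figure D1:**
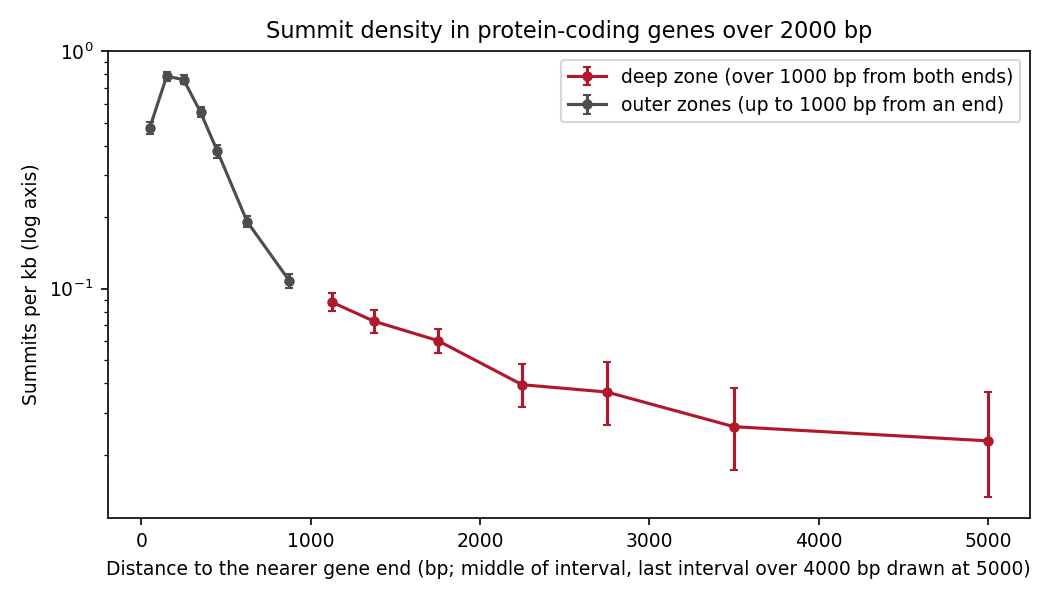
Summits per kb (log axis) against the distance in bp to the nearer end of protein-coding genes over 2000 bp. Red points are the deep zone, grey points the outer zones, and bars are exact 95% counting intervals. Density is highest at 100 to 300 bp and lowest beyond 4000 bp, at 0.0229 per kb.

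The 1000 bp limit does not mark a break in the data. The 100 bp just inside it (1000 to 1100 bp from the nearer end) held 243 summits with a median score of 6.84, and the 100 bp just outside it (900 to 1000 bp) held 300 summits with a median score of 6.07. The score is the authors' own value for each summit, taken here as a −log10 value (of p or q) because the file has the columns that MACS2 writes for summits. Summits in La2, AT3G17450 and SIR were the first inside the limit, each 1001 bp from an end, with scores of 6.32, 3.99 and 7.11. Summits in AT4G39140, AT5G01760 and CRR1 lay exactly 1000 bp from an end, with scores of 3.78, 4.42 and 3.19, and do not count as deep.

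Most deep summits were only just deep. Their median distance to the nearer end was 1328 bp (interquartile range 1141 to 1685 bp), and 838 of them (64.1%, interval 61.4 to 66.7) lay within 1500 bp of an end, a belt that makes up 50.4% of the deep zones. Only 179 (13.7%, interval 11.9 to 15.7) lay over 2000 bp from both ends, where 25.9% of the deep zones lies, and 44 (3.36%) lay over 3000 bp from both. The deepest summit was in AT5G23110, a gene of 17576 bp, at 8633 bp from the nearer end (score 9.67). It was followed by summits in NUA, which encodes a protein of the nuclear pore basket (5877 bp, score 3.78), and SYD, a chromatin remodeller of the SWI/SNF type (5268 bp, score 3.58). All 3 of these summits scored under 10, as did most deep summits, of which 29.9% scored at least 10. A summit of AT3G60961, 4881 bp from the nearer end, scored 102.

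Counted by chromosome coordinate, deep summits fell about equally on both sides of the gene. Their median relative position was 50.1% of gene length from the lower-coordinate end (interquartile range 39.0 to 61.9%), and 653 of 1308 lay nearer to the lower-coordinate end. The gene table gives no strand, so the side of the transcription start was not analysed here. Genes of both strands are mixed in these values, which would be near 50% whichever side of the start the summits favoured. Measured within the deep zone from its edge (0%) to its centre (50%), 326 summits (24.9%, interval 22.6 to 27.4) lay in the outermost step from 0 to 10% and 232 (17.7%, interval 15.7 to 19.9) in the innermost step from 40 to 50%, where an even spread would put 20% in each of the 5 steps. Among the 347 deep summits of genes over 5000 bp the outermost step held 107 (30.8%) and the innermost 53 (15.3%).

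The share of genes with a deep summit varied with gene length. Genes with a deep summit had a median length of 3715 bp (interquartile range 2992 to 4909 bp), and genes over 2000 bp without one had a median length of 2906 bp (2392 to 3758 bp). A deep summit was found in 2.32% of 4230 genes of 2000 to 2500 bp, in 9.29% of 2282 genes of 3000 to 3500 bp, in 14.9% of 645 genes of 4500 to 5000 bp and in 23.3% of 287 genes over 8000 bp (interval 18.6 to 28.7). Density ran the other way: the deep zones held 0.0977 summits per kb in genes of 2000 to 2500 bp and 0.0360 in genes over 8000 bp, while the outer zones of the same 2 length classes held 0.332 and 0.460. The ratio of deep to outer density thus went from 0.295 in the shortest class to 0.0785 in the longest.

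At a fixed distance the decline with gene length was smaller. In the belt of 1000 to 1500 bp from the nearer end, density was 0.0921 per kb (interval 0.0820 to 0.103) in genes of 2000 to 3000 bp, 0.0839 in genes of 3000 to 4000 bp and 0.0661 (interval 0.0541 to 0.0800) in genes of 4000 to 5000 bp. It was 0.0773 in genes of 5000 to 6000 bp (interval 0.0587 to 0.09997) and 0.0615 in genes of 6000 to 8000 bp (interval 0.0431 to 0.0852). In genes over 8000 bp it was 0.0712, and with 20 summits its interval of 0.0435 to 0.110 includes the value of the shortest class. Of the longer classes, those of 4000 to 5000 bp and of 6000 to 8000 bp have intervals that lie below that value.

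**Figure D2:**
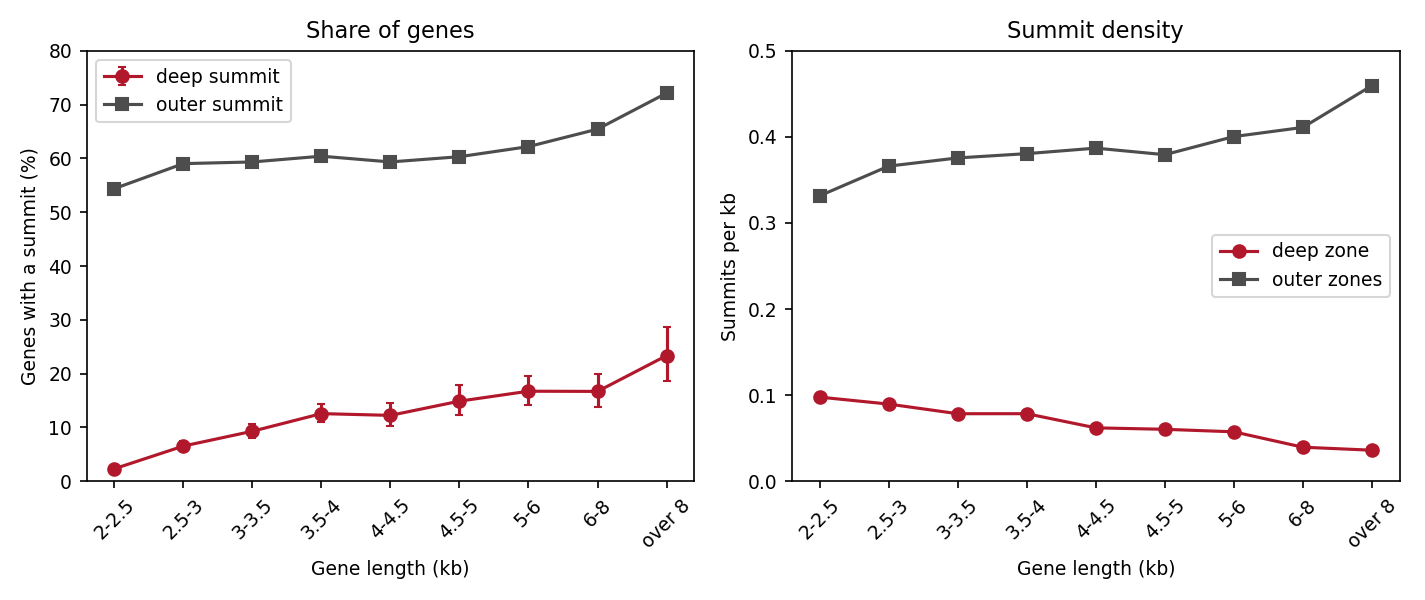
Share of genes with a summit (left, %) and summits per kb (right) by gene length in kb, for deep summits and deep zones (red) and for outer summits and outer zones (grey). Bars on the red points at left are exact 95% intervals. The share of genes with a deep summit is 2.32% in the shortest class and 23.3% in the longest, while density in the deep zone is 0.0977 and 0.0360 per kb.

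Of the 25 longest genes of the genome, 5 had a deep summit, and each had just 1. A deep summit was found in 23.3% of all 287 genes over 8000 bp (interval 18.6 to 28.7). The count among the 25 longest therefore does not set them apart. AT1G58602 (19695 bp, the longest with one) had its summit 1994 bp from an end with a score of 26.8, and ILA (18607 bp) had one 1416 bp from an end with a score of 46.4. In both genes it was the only summit of any kind. TIL1 (18039 bp), which encodes the catalytic subunit of DNA polymerase epsilon, had a deep summit of 3.78 and 2 others of 11.6 each. The 5 longest genes without a deep summit were ATM, a kinase that signals DNA damage (27265 bp), AT1G48090 (26499 bp), AT1G67120, listed with the name MIDASIN 1 (26211 bp), AT4G17140 (23544 bp) and AT5G24740, listed with the name SHRUBBY (20157 bp). All 5 held 1 or 2 outer summits.

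Deep summits were mostly weak. Their median score was 6.07 (interval 5.82 to 6.58, interquartile range 3.78 to 11.6), against 9.37 (interval 9.07 to 9.67, interquartile range 5.34 to 19.2) for the 14538 summits inside exactly 1 gene that were not deep. The difference in medians was -3.29. A score of at least 10 was reached by 391 deep summits (29.9%, interval 27.4 to 32.5) and by 47.2% of the others, and a score over 50 by 38 deep summits (2.91%) and by 6.21% of the others. A score over 100 was reached by 13 deep summits (0.994%, interval 0.530 to 1.69) and by 1.58% of the others. Genes with a deep summit of at least 10 made up 2.66% of the genes over 2000 bp.

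Within the deep zone, scores changed little with depth. The median score was 6.32 (interval 5.82 to 7.11) at 1000 to 1250 bp from the nearer end, 5.58 (interval 5.10 to 6.32) at 1500 to 2000 bp and 5.70 (interval 3.99 to 7.64) for the 44 summits beyond 3000 bp. The score grows with sequencing depth and with local read pile-up, and it is not an occupancy level.

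**Figure D3:**
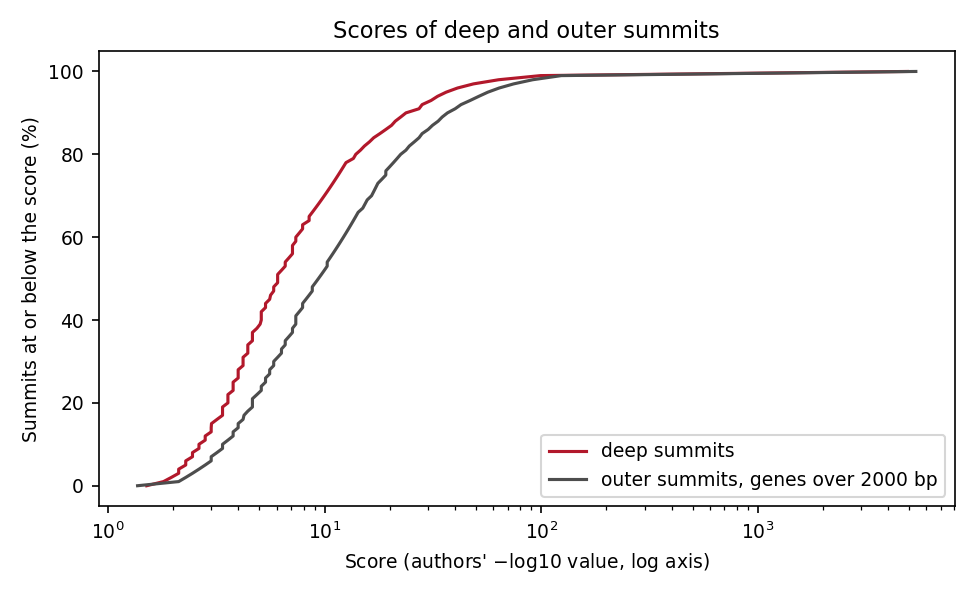
Cumulative share of summits (%) against the authors' score (−log10 value, log axis), for the 1308 deep summits (red) and the 10233 outer summits of genes over 2000 bp (grey). The red curve lies to the left of the grey one over most of the range, with medians of 6.07 for deep and 9.37 for outer summits.

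Most deep summits shared their gene with at least 1 other summit. In 876 cases (67.0%, interval 64.3 to 69.5) the gene held another summit, and in 432 cases (33.0%) the deep summit was the only one. Of the 1212 genes, 757 (62.5%, interval 59.7 to 65.2) also held an outer summit. Genes without a deep summit but of the same lengths, in bins of 500 bp, held an outer summit in 60.1% of cases, a share that the interval includes at its low end. Exactly 1 outer summit was found in 542 of the 1212 genes, 2 in 208, and 3 or more in 7.

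Where a gene held both kinds, the best outer summit was usually stronger than the best deep one. The best deep score exceeded the best outer score in 245 of 757 genes (32.4%, interval 29.0 to 35.8), with 7 ties. Of these genes, 208 had 2 outer summits and 7 had 3 or more, while 1127 of the 1212 genes had a single deep one. The outer best was thus more often taken from several scores, which favours it. How far this moves the share was not tested. The medians of the best scores were 5.82 for deep summits and 10.6 for outer summits of these genes. In the 455 genes with no outer summit the median best deep score was 7.92.

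The stronger a deep summit was, the more often its gene lacked an outer one. Among genes whose best deep score was under 5, 129 of 453 (28.5%, interval 24.4 to 32.9) had no outer summit. The share was 139 of 375 (37.1%) for scores of 5 to 10, 162 of 347 (46.7%, interval 41.3 to 52.1) for scores of 10 to 50 and 25 of 37 (67.6%, interval 50.2 to 82.0) for scores of 50 or more. Seen the other way, the best deep score was at least 10 in 41.1% of genes without an outer summit and in 26.0% of genes with one. Members were chosen by position and not by score, but all scores come from 1 list, and how the peak caller treated neighbouring peaks was not tested.

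Deep summits tended to have a nearer neighbour than outer ones, though few of either kind had one within 500 bp. The nearest other summit lay a median of 1591 bp from a deep summit and 2313 bp from an outer summit of genes over 2000 bp. A neighbour within 1000 bp was found for 269 deep summits (20.6%) and for 10.8% of the outer ones. There was one within 500 bp for 4 deep summits (0.306%) and 0.313% of the outer ones. No 2 nuclear summits of the list were closer than 374 bp. Neighbouring deep summits of 1 gene were a median of 1225 bp apart (96 pairs, 560 to 4725 bp).

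The 15 highest deep scores belonged to 15 genes, of which 12 had no outer summit. For comparison, 25 of the 37 genes with a best deep score of 50 or more (67.6%) had none. Among all genes with a deep summit the share was 37.5%. HDA6, which encodes a deacetylase that acts in gene silencing, stood far above the rest: its deep summit on chromosome 5 at position 25317034 scored 4897, at 53.8% of a gene of 2842 bp. Its outer summits scored 5357 and 34.9. What sets HDA6 apart was not tested. CES101, which encodes a receptor-like kinase, came next with deep summits of 411 (chromosome 3, position 5440505) and 60.8 and no outer summit. UBP1, a ubiquitin-specific protease gene, had 1 summit in all, with a score of 238 (chromosome 2, position 13899846). The same held for PCL1, better known as LUX, a DNA-binding member of the evening complex of the circadian clock, whose summit scored 199.7 at 50.3% of the gene (chromosome 3, position 17185012). Of these 4 genes, HDA6 was the single one with an outer summit.

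A further 8 of the 15 genes were known by locus name only, and most of them also had a lone deep summit. AT1G35320 (score 168), AT1G01830 (161), AT5G59680 (159.99), AT5G19150 (122), AT4G16957 (122) and AT2G15300 (103) had no other summit. AT3G06160 had a deep summit of 167 and outer ones of 84.4 and 9.37, and AT3G60961 a deep summit of 102 and an outer one of 70.7. Named genes completed the group. ACA1, a calcium pump, had 1 summit of 122 at 50.5% of the gene. G18F, a homologue of a yeast autophagy gene, had 1 of 99.6, and PKT3, a thiolase gene of fatty acid breakdown in peroxisomes, had 1 of 95.4. The deep score of each of these 3 genes was the only one of its gene.

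In 10 genes, 3 or more deep summits lay in a row. None of these 31 summits scored over 50, a level exceeded by 2.91% of all deep summits. That share is too small for its absence among 31 summits to set these genes apart. Only genes with 4 or more fell under the naming rule, which left BGAL1, so the other 9 were named after their values were seen. BGAL1, a beta-galactosidase gene of 5514 bp, had 4 deep summits with scores of 3.78, 2.63, 6.07 and 2.81 and outer summits of 5.34 and 37.4. GLT1, the NADH-dependent glutamate synthase gene (10110 bp), had deep summits of 7.36, 11.2 and 5.58 between outer ones of 39.2 and 53.8. In both genes the strongest summit was near an end and the deep ones scored lower.

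In the other 8 genes the strongest summit was not always near an end. Some of their deep summits scored at least 10, as did 29.9% of all deep summits. AT3G11130, the gene of clathrin heavy chain 1 that coats transport vesicles, had deep summits of 5.82, 12.6 and 4.20 and an outer one of 6.84. SPL14, a transcription factor gene of 4971 bp, had deep summits of 9.07, 5.82 and 8.77 and an outer one of 11.2, and the calcium pump gene ACA10 had 6.07, 10.6 and 2.12 with outer ones of 4.87 and 3.38. SLOMO had the weakest set (3.19, 2.63 and 3.99), next to outer summits of 15 and 7.36. AT4G28080 had the highest single deep score of these 10 genes (48.6, with 5.58 and 4.64, and an outer summit of 9.67). It was followed by AT1G66880 (28.7, with 10.6 and 2.81, and an outer summit of 3.38). AT1G01320 had 7.64, 3.99 and 11.9, with an outer one of 18.0. The best summit was deep in AT3G11130, ACA10, AT4G28080 and AT1G66880, and outer in SPL14, SLOMO and AT1G01320. AT4G31230 was the only one of the 10 with no outer summit, and its deep summits scored 13.6, 4.42 and 11.6.

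**Figure D4:**
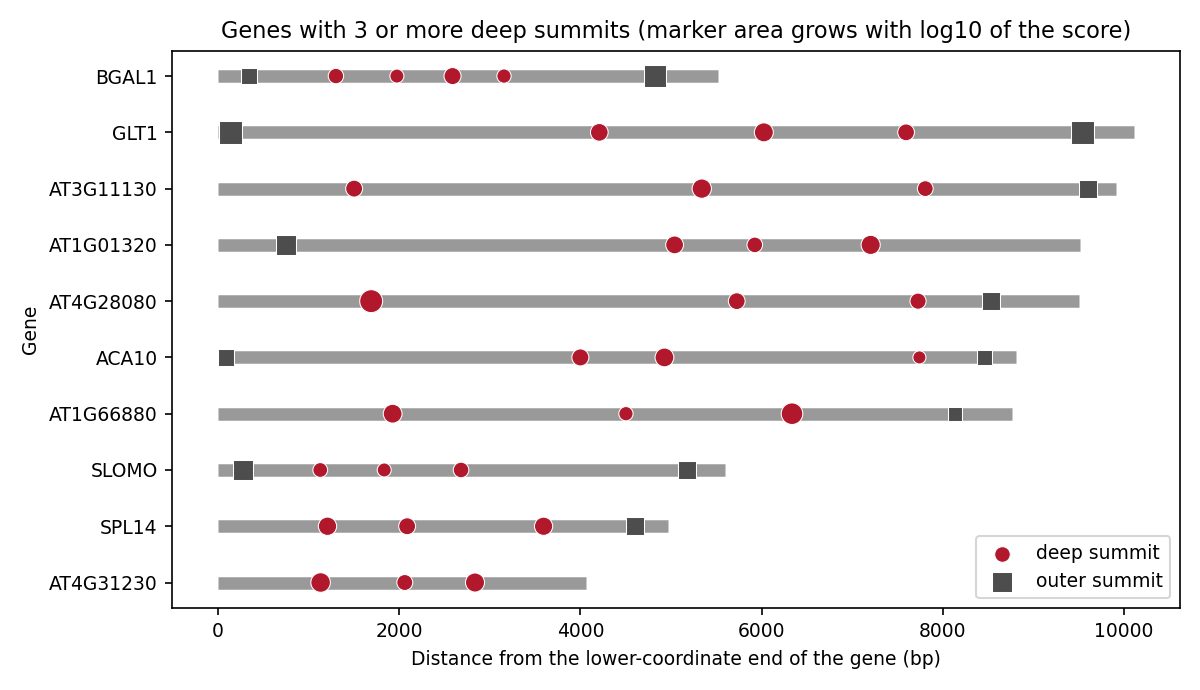
The 10 genes with 3 or more deep summits, drawn to scale from the lower-coordinate end (bp). Red circles are deep summits and dark squares outer summits, with a marker area that grows with log10 of the score. BGAL1 has 4 deep summits, and AT4G31230 has 3 with no outer summit.

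Deep summits were compared with the rest of the annotation and with transcript number. Genes of another type (RNA genes and pseudogenes) covered the position of 27 deep summits (2.06%, interval 1.36 to 2.99), and such genes cover 1.32% of the deep zones. Long noncoding RNA genes accounted for 22 of these. An end of such a gene lay within 300 bp of 22 deep summits (1.68%, interval 1.06 to 2.54), against 1.07% of the deep zones. Genes with a deep summit had 2 or more annotated transcripts in 66.1% of cases (interval 63.3 to 68.8), against 60.1% of genes without one of the same lengths, and 4 or more in 19.8% against 16.7%.

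By chromosome, the share of genes over 2000 bp with a deep summit was 9.45% on chromosome 5 (interval 8.49 to 10.5), 8.80% on chromosome 1, 8.07% on chromosome 4, 8.03% on chromosome 3 and 6.83% on chromosome 2 (interval 5.80 to 7.98). The intervals of the highest and the lowest, picked as the extremes of 5, do not overlap. Deep summits made up 7.75% of all summits on chromosome 5 and 6.03% on chromosome 2. The median lengths of these genes lay between 2924 and 3005 bp on all 5. What sets the chromosomes apart was not tested. The gene of JMJ28 itself (4476 bp) held no deep summit, since its 1 summit lay 49 bp from an end. That summit scored 1443. The plants also carry JMJ28 as a transgene, and whether its copies add to this score was not tested.

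Gene families were set against genes of their own length, since the share with a deep summit varies with length. The length-matched share is the share with a deep summit among other genes in the same 500 bp length bins (1 open bin above 6000 bp), averaged over the family's genes. The 26 families, taken by gene symbol, held 626 genes over 2000 bp, and 101 of these (16.1%, interval 13.3 to 19.3) had a deep summit, against a length-matched 13.4%. Lists made this way are not complete, and members they miss count among the other genes of the same length. Missed members named below are single examples that have a deep summit. The share with a deep summit among all missed members was not counted. In 14 families the share was above the length-matched one and in 12 below. The interval excluded the length-matched share in 2 families, both above it, with no allowance for the number of families compared.

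P-type ATPases, pumps that move ions or lipids across membranes at the cost of ATP, held deep summits most often among the larger families. Of 36 genes, 15 had one (41.7%, interval 25.5 to 59.2), against a length-matched 15.4%, or about 5.55 genes. Their share with an outer summit was close to that of other genes of their length (61.1%, against 62.7%). The calcium pumps ACA and ECA accounted for more of them than any other group, with 8 of 14 genes against a length-matched 15.01%. The proton pumps had 3 of 11 (length-matched 15.7%), the heavy metal pumps 2 of 8 (15.6%) and the lipid flippases 2 of 3 (18.1%). After ACA1 (122), the highest scores were 12.9 in HA1, a proton pump of the plasma membrane, 12.9 in PAA2, a copper pump of chloroplasts, 10.6 in ACA4 and 10.6 in ACA10. With scores of at least 10, 5 of 36 genes had one (13.9%, interval 4.67 to 29.5), and the interval then included the length-matched 4.81%. Members of such families can be alike in sequence, and how reads that fit several copies were counted is not given in the sources used here.

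Leucine-rich repeat receptor kinases sense peptides, hormones and microbial molecules at the cell surface. Those found by symbol, a part of the family, had a deep summit in 13 of 49 genes (26.5%, interval 14.9 to 41.1), against a length-matched 12.4%. LRR XI-23 (3685 bp), 1 example of a gene that this list missed, had 1 deep summit, which does not give the share among missed genes. For outer summits the shares were 65.3% and 60.1%. Of the 13 genes, 9 had no outer summit, against 4 of the 15 P-type ATPase genes. Among all 1212 genes with a deep summit, 455 (37.5%) had none. HSL2, a receptor of the HAESA group, had the highest score (39.0), followed by the flagellin receptor FLS2 (29.6 and 8.77), the co-receptor SERK4 (21.2 and 3.38) and SRF3 (21.2). With a limit of 1500 bp in genes over 3000 bp, 5 of 47 had one (10.6%, interval 3.55 to 23.1), and the interval then included the length-matched 6.28%. BRI1, the brassinosteroid receptor, EFR and ERECTA (listed as ER) were among the 36 without one and are named here after their values were seen.

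Some of the small families had high shares with wide intervals. Phytochromes and phototropins, the red and blue light receptors, had a deep summit in 3 of 7 genes (42.9%, interval 9.90 to 81.6, length-matched 15.4%), with scores of 7.11 in PHYA, 3.78 in PHYD and 2.46 and 2.12 in PHOT2. Nucleoporins had one in 3 of 6 genes (interval 11.8 to 88.2%, length-matched 17.1%; NUP1 16.9, NUA 12.2, EMB2766 4.20), and CAMTA factors, which respond to calcium, in 2 of 3 (interval 9.43 to 99.2%, length-matched 18.1%; SR1 8.48, AT5G64220 6.07). SPL transcription factors had one in 3 of 12 genes (25%, length-matched 8.74%), namely SPL11 (11.2), SPL14 (9.07) and SPL7 (1.96). With scores of at least 10 the direction turned in the light receptors (0 of 7 genes, length-matched 4.46%) and in CAMTA factors (0 of 3, length-matched 6.18%).

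In 7 more families the share was above that of genes of their length, by margins within counting error at the main settings. Auxin response factors had a deep summit in 4 of 22 genes (18.2%, length-matched 12.2%), and these were among the stronger ones: 54.3 in ARF6, 22.0 in ARF2, 21.2 in ARF19 and 16.5 in NPH4, all of them with outer summits as well. Disease resistance genes had one in 6 of 25 (24.0%, length-matched 13.6%), with scores of 8.20 in RPS4, 7.36 in RPS6, 4.87 in ADR1-L2 and 4.64 in RLM3. Homeodomain-leucine zipper genes had one in 5 of 21 (23.8%, length-matched 15.1%), led by HB-7 (28.2) and PDF2 (10.3), ahead of HDG7 (7.36) and HDG11 (6.32). The JmjC demethylases found by symbol had one in 2 of 10 genes (20%, length-matched 12.2%; ELF6 5.10, AT3G45880 3.38). PKDM7D (7226 bp), another JmjC demethylase gene, was not on that list and had 1 deep summit and no outer one. Dicer-like and Argonaute genes had one in 3 of 13 (23.1%, length-matched 16.8%; AGO9 12.2, AGO1 9.67, DCL2 8.48). Subtilases had one in 2 of 13 (15.4%, length-matched 11.0%; SBT5.4 7.92, SBT4.12 6.32), and large ubiquitin ligases in 2 of 10 (20%, length-matched 18.2%; UPL2 5.82, PRT6 3.99). At the main settings, the interval of every family in this group includes its length-matched share. The direction turned in 4 of them with scores of at least 10, where disease resistance genes, JmjC demethylases, subtilases and ubiquitin ligases had no gene left, and in homeodomain-leucine zipper genes with a limit of 1500 bp (1 of 21, 4.76%, against 9.06%). The interval of auxin response factors lay above the length-matched share with scores of at least 10 (5.19 to 40.3, against 4.01%). It did so too with the limit of 1500 bp (4 of 21, 5.45 to 41.9, against 5.31%). No allowance was made for the number of families and settings compared.

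In 6 further families the interval included the length-matched share, which lay close to or above the family's own. ABC transporters had a deep summit in 14 of 119 genes (11.8%, interval 6.58 to 19.0, length-matched 12.9%), with ABCG22 (24.2), PGP10 (23.7), ABCC6 (22.9) and ABCB1 (15.7) highest. Callose and cellulose synthases had one in 7 of 52 (13.5%, length-matched 14.7%; CSLC04 23.3, CSLD3 18.0, CSLG1 9.37 and CESA4 4.42 highest). Phospholipase D and lipid kinase genes had one in 4 of 28 (14.3%, length-matched 14.1%; PIP5K9 6.32, PIP5K2 5.58, PLDALPHA1 5.10 and PI4K GAMMA 4 3.38). Potassium and cyclic nucleotide channels had one in 3 of 29 (10.3%, length-matched 11.6%; CNGC1 32.0, DND1 19.97 and CNGC5 4.20). Kinesins had one in 2 of 20 (10%, length-matched 17.4%; KP1 5.82, FRA1 2.29) and myosins in 2 of 17 (11.8%, length-matched 19.0%; ATM1 12.2, MYA2 3.19).

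SET-domain histone methyltransferases, which include the enzymes that place the mark JMJ28 relatives remove, had a deep summit in 1 of 35 genes (2.86%, interval 0.0723 to 14.9, length-matched 11.4%). That gene was SUVH2, with a score of 22.5. Their outer summits were about as frequent as in other genes of their length (60%, against 60.7%). SNF2 chromatin remodellers found by symbol had one in 4 of 30 (13.3%, length-matched 16.7%; BRM 7.36, MOM 3.99, SYD 3.58 and CHR8 2.12). That list missed chr31 (4986 bp), a gene of the same kind with 1 deep summit and no outer one. RNA polymerase subunits had one in 1 of 12 (8.33%, length-matched 16.0%; NRPD1B, score 2.12). The intervals of all 3 families include the length-matched share.

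In 4 families no gene had a deep summit. These were the glutamate receptor-like channels (0 of 20 genes, interval up to 16.8%, length-matched 11.95%), the HSP70, HSP90 and HSP100 chaperones (0 of 18, up to 18.5%, length-matched 9.56%), the aminoacyl-tRNA synthetases (0 of 11, up to 28.5%, length-matched 13.8%) and the formins (0 of 8, up to 36.9%, length-matched 11.5%). Each interval includes its length-matched share, so a lower share was not detectable with so few genes. Outer summits were present in these families, in 9 of 20, 10 of 18, 8 of 11 and 4 of 8 genes in the order given.

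**Figure D5:**
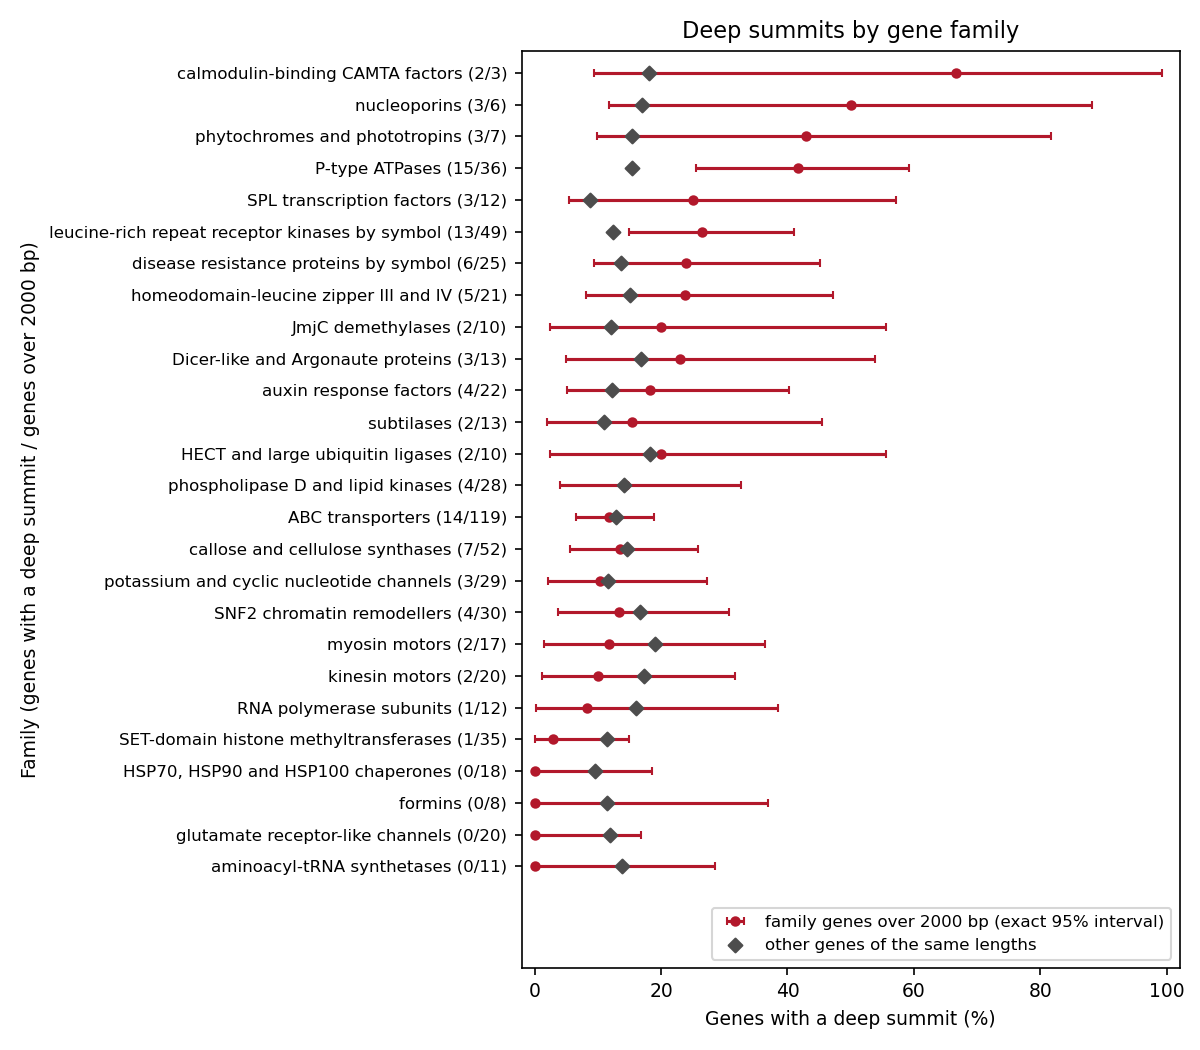
Share of genes over 2000 bp with a deep summit (%) in 26 families taken by gene symbol, with exact 95% intervals (red circles and bars), and the share among other genes of the same lengths (grey diamonds), ordered by the difference. P-type ATPases (15 of 36) and leucine-rich repeat receptor kinases (13 of 49) are the families whose interval lies wholly above the diamond.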

How the data were processed

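The authors deposited 1 list of peak summits, for which the submitters' processing notes name Bowtie2, which aligns reads, MACS2, which calls peaks, and the TAIR10 build. The sources used here do not give versions, the threshold, how the 2 ChIP libraries were combined or how the input was used. The deposited score is read as a −log10 value (p or q), from the layout of the file.

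Genes came from an NCBI table of TAIR10.1 (37899 nuclear genes, no strand, no exons). Its coordinates are not printed. As a check that it shares the summits' coordinates, 5 of 5 chromosomes had the most summits close to a gene end (300 bp or less) at no shift (52.7% or more, and at most 30.1% at shifts of 2000 to 3000 bp). Positions count from 1. No genome sequence was used, so no sequence is printed.

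Zone lengths count only bases covered by 1 protein-coding gene. A summit of a gene counts as outer when it is inside the gene but not deep, which includes a few in stretches shared with another coding gene. Families were taken by symbol or alias, and genes that only share an alias were removed by hand. Genes were named by rule: those with the 15 highest deep scores, those with 4 or more deep summits, the 5 longest with and without one, up to 4 per family, and 3 summits on each side of the limit. Members and lists were chosen with earlier results of these data known. Intervals are exact binomial (95%); those of densities are exact Poisson, and those of medians come from binomial order statistics. The scripts were tested on simulated data. Computation used SciPy 1.17.1, pandas 2.3.3 and numpy 2.4.6 under Python 3.11.15, and plots used matplotlib 3.10.9.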

Additional observations from a re-analysis of the deposited data

How the results depend on the processing

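Counts depended on the limit and on the score, and the pattern along the gene less so. With limits of 500 and 1500 bp there were 4097 and 470 deep summits, found in 16.1% and 6.12% of the genes long enough, and the ratio of deep to outer density was 0.207 and 0.165. With scores of at least 10 there were 391 deep summits, in 2.66% of genes over 2000 bp, the density ratio was 0.112, and 25.1% of deep summits had another summit of at least 10 in the gene. In genes over 3000 bp the density ratio was 0.152. With summits within 1000 bp of the gene added, 81.2% of deep summits had another one. At a score of at least 10, 9 of 26 families exceeded their length-matched share, among them leucine-rich repeat receptor kinases (6 of 49, 12.2%, interval 4.63 to 24.8, against 3.77%) and auxin response factors (4 of 22, 18.2%, interval 5.19 to 40.3, against 4.01%), while the interval of P-type ATPases (4.67 to 29.5) then included their 4.81%. With the limit of 1500 bp, P-type ATPases stayed above (11 of 36, 30.6%, interval 16.3 to 48.1, against 9.42%) and the interval of leucine-rich repeat receptor kinases (3.55 to 23.1) included their 6.28%. The cause of these moves beyond the construction of each alternative was not tested. Under the 4 alternatives for families, 16 of 26 stayed on 1 side of the length-matched share (6 above, 10 below) and 10 changed side under a score of at least 10, a limit of 1500 bp or both: ABC transporters and potassium and cyclic nucleotide channels to above, and JmjC demethylases, ubiquitin ligases, lipid kinases, homeodomain-leucine zipper genes, CAMTA factors, light receptors, disease resistance genes and subtilases to below. Joining summits under 300 bp apart changed nothing, as none are that close, and joining under 600 bp, chosen after seeing the data, left 1299. No paired analysis was possible because the values are 1 list with none per library, and no replicate could be left out for the same reason.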

Other observations

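Symbols that share their leading letters formed 92 groups with 10 or more genes over 2000 bp. Of these, 44 exceeded their length-matched share and 26 had no deep summit. The highest shares were in the groups ACA (5 of 11, length-matched 14.3%, calcium pump genes among them that were counted above with the P-type ATPases) and ACR (5 of 11, length-matched 7.54%), and the groups MAP (0 of 19, interval up to 17.6%, length-matched 9.24%), PP (0 of 19, up to 17.6%, length-matched 7.35%) and GLR (0 of 18, up to 18.5%, length-matched 12.1%) were the largest of those with none, each with its length-matched share inside the interval. These groups were picked as the extremes of many and were not tested. Genes with a deep summit had a symbol other than their locus name in 54.5% of cases (interval 51.7 to 57.4), against 50.1% of genes without one of the same lengths.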
